A study of Mus musculus with 6 samples.

Results

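The intercalated disc is the end-to-end contact between cardiomyocytes, and 10 genes that encode its gap junctions, desmosomes and adherens junctions were followed in injured left ventricles. They are *Gja1* and *Gjc1*, which encode connexins, *Dsp*, *Pkp2*, *Dsg2*, *Dsc2* and *Jup* of the desmosome, *Cdh2* and *Ctnna3* of the adherens junction, and *Tjp1*, which encodes a scaffold. Their rows were picked by gene symbol from a fixed list that uses no measured value, although earlier results of these data were known when the list was made. All 10 were found among the 17556 genes of the expression table.

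At 4 dpi (days after infarction) left ventricles were taken from mice labelled Cre_pos (3 samples) and from siblings labelled Cre_neg (3 samples), and bulk RNAseq gave an estimated read count and a TPM (a level scaled to transcript length, in which each library has the same total) for each gene. Mice were 6 to 10 weeks old, and every mouse of both groups had permanent ligation of the left anterior descending artery, received tamoxifen citrate diet from surgery and carried *Yap* fl/fl;*Wwtr1* fl/+. Cre_pos mice also carried *Postn* MCM, a tamoxifen inducible Cre placed in the endogenous periostin gene, and Cre_neg mice had the wildtype periostin gene. The Cre is active in myofibroblasts, so the floxed alleles of cardiomyocytes are not its target. The comparison asks whether junction transcripts of the whole ventricle differ between mice whose myofibroblasts can and cannot recombine *Yap* and *Wwtr1*. The groups also differ in the Cre itself and in the periostin gene that holds it. No group carried the Cre without the floxed alleles, so these differences cannot be told apart.

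At the disc, connexins form channels that carry current and small molecules from cell to cell, and connexin 43, the product of *Gja1*, is the main connexin of working ventricular muscle. Desmosomes tie intermediate filaments to the membrane, adherens junctions tie actin to it, and in the heart the components of both mix in the area composita. Loss or lateral redistribution of connexin 43 at the border of an infarct is a known feature of injured myocardium, and variants in desmosomal genes cause arrhythmogenic cardiomyopathy.

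Libraries held between 13177888 and 14827579 estimated counts, and 13817 genes passed the filter on low counts, all 10 junction genes among them. Normalized counts of whole-ventricle *Yap1* and *Wwtr1* overlapped between genotypes, with log2 fold changes (Cre_pos over Cre_neg) of 0.03 ± 0.09 (SE) and 0.05 ± 0.08. In TPM both were higher in all Cre_pos ventricles, *Yap1* at 48.9 to 50.7 against 44.2 to 46.3 and *Wwtr1* at 43.9 to 47.4 against 39.3 to 43.6, as were 15% of all genes tested. *Postn*, the gene that holds the driver, had normalized counts of 12157, 24639 and 26862 in the Cre_neg ventricles and 12682, 14240.2 and 13486 in the Cre_pos ventricles. The library labelled Cre_neg replicate 1 was therefore below all Cre_pos libraries for *Postn*. With it the log2 fold change was -0.66 ± 0.27 (edgeR adjusted p = 0.714), and without it -0.94 ± 0.08 (edgeR adjusted p = 0.0182). That library was picked out by its own *Postn* count, so the second p-value is no independent test. Leaving out any other single library gave -0.45 to -0.70, with an edgeR adjusted p of 0.552 at the lowest. The changed periostin gene of Cre_pos mice cannot be told apart from recombination in these values. Cre_neg replicate 1 also had the highest summed count of 11 cardiomyocyte markers, 1161060 against 801924 and 813729 in its group and 672907 to 779739 in Cre_pos. Summed counts of 4 Y-linked genes were 16 and 12 in replicate 2 of Cre_neg and Cre_pos and between 1592 and 2034 in the other 4 libraries, so this difference is balanced between the genotypes. Results on the junction genes are therefore given with and without Cre_neg replicate 1.

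Promoter windows in RefSeq (GRCm38.p6) matched 5 of the 10 genes, *Gja1*, *Jup*, *Dsp*, *Tjp1* and *Ctnna3*, with 7 windows because *Ctnna3* had several start sites. The *Tjp1* window also lies before a downstream start site, within the gene's printed span. Yap and Wwtr1 bind DNA through TEAD factors, whose core motif is GGAATG, so the 250 bases before each start were searched on both strands for it, and for the AP-1 motif TGANTCA, the GC box GGGCGG, the CCAAT box and the TATA box TATAAA. The windows shown are those of the 2 genes with the highest levels, *Gja1* (chr10:56377050-56377299, plus strand, AP-1 match in capitals) and *Jup* (chr11:100397840-100398040, minus strand, 201 bases that end where the gene's outermost RefSeq position begins, GC box and CCAAT boxes in capitals), and the stretch of *Ctnna3* (chr10:63457375-63457434, plus strand, before a downstream start site) that held GGAATG, in capitals.
Gja1: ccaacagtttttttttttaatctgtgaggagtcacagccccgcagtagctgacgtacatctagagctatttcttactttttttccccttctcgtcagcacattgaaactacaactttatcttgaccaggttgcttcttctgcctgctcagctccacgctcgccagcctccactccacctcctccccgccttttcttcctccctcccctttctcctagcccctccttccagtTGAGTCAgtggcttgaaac
Jup: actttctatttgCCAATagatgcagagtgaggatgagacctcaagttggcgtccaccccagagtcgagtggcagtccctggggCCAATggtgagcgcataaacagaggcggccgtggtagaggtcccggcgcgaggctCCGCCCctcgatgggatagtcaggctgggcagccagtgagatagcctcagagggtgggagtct
Ctnna3: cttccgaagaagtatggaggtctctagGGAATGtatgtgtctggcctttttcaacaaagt

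The match to TGANTCA in *Gja1* began 19 bases before the start site, and this motif was found in 6.75% of all 32851 windows. GGAATG was found in 12.6% of all windows and in 1 of the 7 windows here, 109 bases before that start of *Ctnna3*. GC boxes were found in 4 of the 7, those of *Jup*, *Dsp* and *Tjp1* and the first of *Ctnna3*, against 32.7% of all windows. *Jup* was the only one of the 7 with CCAAT (33.8% of all windows), and TATAAA (12.4%) was found in 1 window of *Ctnna3*. These matches describe letters in the reference.

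The 10 genes spanned from 7.29 to 275 TPM as means over the 6 ventricles. *Jup*, which encodes plakoglobin, a plaque protein shared by desmosomes and adherens junctions, had the highest level at 275 ± 13 TPM (SD, n = 6). *Gja1* followed at 263 ± 18.3 TPM, and the order of these genes was not clear, since their ranges overlapped and *Jup* was above *Gja1* in 5 of 6 ventricles. *Dsp* (164 ± 8.69 TPM), *Cdh2* (143 ± 6.62 TPM) and *Pkp2* (113 ± 4.82 TPM) came next, without overlap between neighbours in the order. A gap of 3.67-fold separated *Pkp2* from *Gjc1*, the second connexin, at 30.8 ± 5.14 TPM. *Gjc1* and *Tjp1* (26.7 ± 1.98 TPM) overlapped, and *Gjc1* was the higher in 5 of 6 ventricles. The desmosomal cadherins were lower, *Dsg2* at 21.6 ± 2.18 TPM and *Dsc2* at 14.3 ± 2.0 TPM, and *Ctnna3*, the α-T-catenin gene, was lowest at 7.29 ± 1.08 TPM. By mean TPM *Jup* and *Gja1* were at percentiles 96.0 and 95.9 of the genes tested, and *Ctnna3* at percentile 31.1. *Jup*, *Dsp* and *Pkp2* were thus each measured at several times the level of either desmosomal cadherin.

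**Figure D1:**
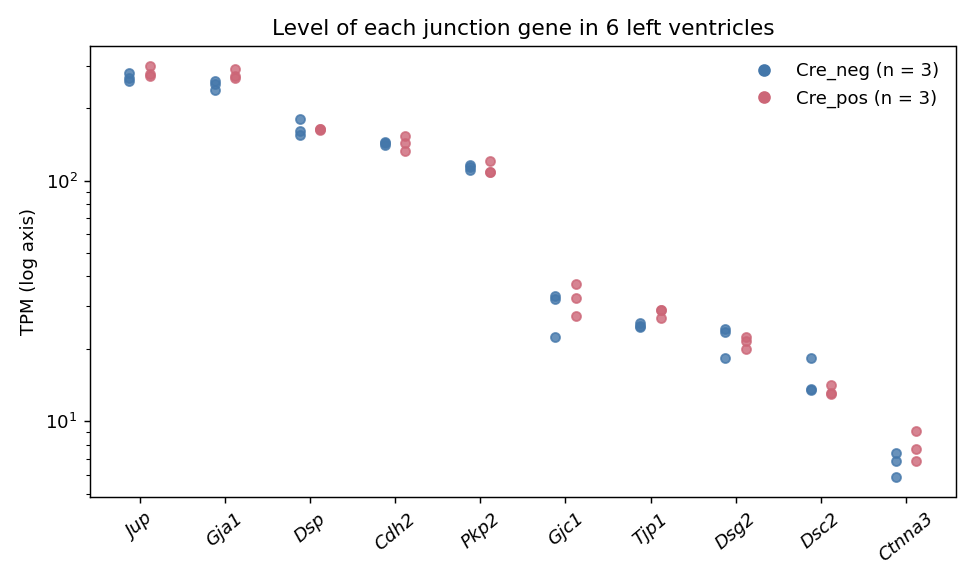
Level of each junction gene in TPM (log axis), in order of the mean. Points are single left ventricles, 3 Cre_neg and 3 Cre_pos. *Jup* and *Gja1* share the top, near 275 and 263 TPM, and *Ctnna3* sits lowest, near 7.29 TPM.

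No junction gene passed an adjusted p of 0.05 in the comparison of genotypes by edgeR's quasi-likelihood test (0 of 10, where 0.00724% of all genes tested, 1 gene, passed). With all libraries none had an unadjusted p under 0.05 either, against 5.83% of all genes tested, and DESeq2 and limma on log2(TPM + 1) also called none. Log2 fold changes of the 10 genes ran from -0.30 to 0.05 with a median of -0.09, where the median of all genes tested was 0.01, and 6 were below 0 and 4 above. The 95% intervals reached at most 0.69 below and 0.39 above 0 on the log2 scale. Differences beyond these limits lie outside the interval of each of the 10 genes. Because the tissue is bulk, fewer cells of a type and less RNA per cell cannot be told apart.

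**Figure D2:**
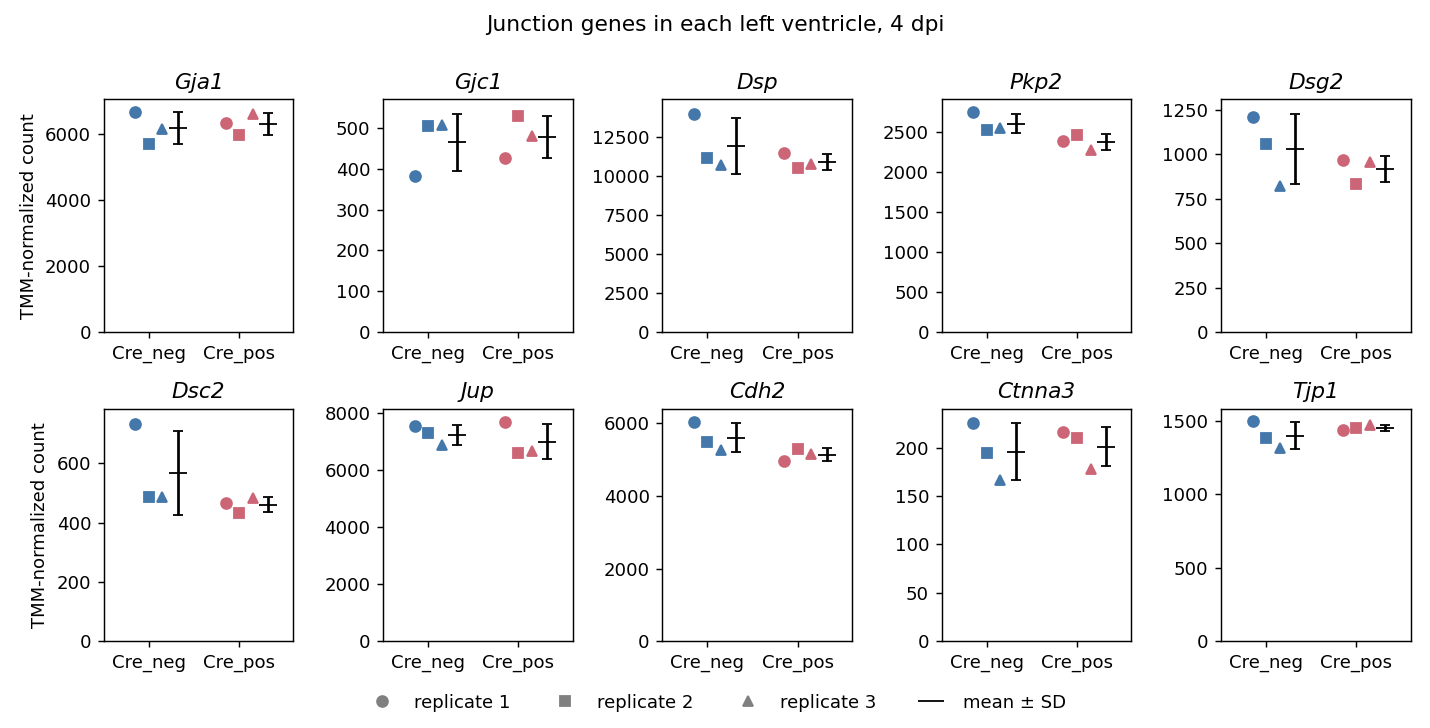
TMM-normalized counts of the 10 junction genes in each ventricle, with symbols for replicate numbers and the mean ± SD beside each group of 3. The axes start at 0. Groups overlap for 8 genes, and for *Pkp2* and *Dsc2* the Cre_pos ventricles all lie below the Cre_neg ventricles, with *Dsc2* of Cre_neg replicate 1 apart at 731.

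Among the connexins, *Gja1* (gene number 14609, chr10:56377300-56390419) had normalized counts of 6669.6, 5708 and 6159.8 in Cre_neg and 6335, 5974 and 6615 in Cre_pos ventricles. The groups overlapped, with means of 6179 ± 481 and 6308 ± 322 (SD, n = 3 each). The log2 fold change was 0.03 ± 0.10 (SE) with a 95% interval of -0.21 to 0.27 (edgeR adjusted p = 0.94). In TPM, *Gja1* was 250.5, 239 and 259 in Cre_neg and 267, 271 and 292 in Cre_pos ventricles, so that on this scale every Cre_pos value was above every Cre_neg value. TPM moved the whole table, however, and the median log2 difference of all genes tested was 0.11 on log2(TPM + 1), against 0.15 for *Gja1* (limma adjusted p = 0.59).

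*Gjc1* (14615, chr11:102799477-102819686) encodes connexin 45, which is best known from the conduction system and the developing heart. Its normalized counts were 383, 504 and 506 in Cre_neg and 426, 529 and 479 in Cre_pos ventricles. Replicate 1 was the lowest of its group in both genotypes, and the groups overlapped. The log2 fold change was 0.04 ± 0.14 (edgeR adjusted p = 0.94), and -0.08 without Cre_neg replicate 1.

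In the desmosome, *Dsp* (109620, chr13:38151294-38198577) encodes desmoplakin, the linker to desmin filaments. Normalized counts were 14033, 11182 and 10701 in Cre_neg and 11531, 10551 and 10765 in Cre_pos ventricles. The difference in means, with a log2 fold change of -0.13 ± 0.13, was accompanied by 1 high library, Cre_neg replicate 1, and without it the value was -0.00296, while without Cre_neg replicate 3 it was -0.20. *Pkp2* (67451, chr16:16213345-16272712), which encodes plakophilin 2, an armadillo-repeat plaque protein, had normalized counts of 2748, 2523 and 2557 in Cre_neg and 2386, 2467 and 2278 in Cre_pos ventricles. These did not overlap, and the log2 fold change was -0.13 ± 0.09 (edgeR adjusted p = 0.714). By exact permutation (two-sided) p was 0.1, the smallest that 3 against 3 allows. In TPM the *Pkp2* groups overlapped, at 111, 114 and 116 against 108, 121 and 108.

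The desmosomal cadherins *Dsg2* (13511) and *Dsc2* (13506), which hold neighbouring cells together, both lie on chromosome 18. *Dsg2*, desmoglein 2, had normalized counts of 1209.6, 1058 and 822 in Cre_neg and 965, 831 and 955 in Cre_pos ventricles, which overlapped, with a log2 fold change of -0.17 ± 0.15. It was -0.04 ± 0.12 without Cre_neg replicate 1, -0.10 without Cre_pos replicate 2 and -0.31 ± 0.12 without Cre_neg replicate 3, where *Dsg2* alone of the 10 had an unadjusted p under 0.05 (edgeR unadjusted p = 0.0345, adjusted p = 0.509). *Dsc2*, desmocollin 2, had normalized counts of 731, 486 and 487 in Cre_neg and 467, 432 and 482 in Cre_pos ventricles. The Cre_pos values were all below, but only Cre_neg replicate 1 was far from them. *Dsc2* had the largest log2 fold change of the 10 genes, -0.30 ± 0.17 (95% interval -0.69 to 0.09, edgeR adjusted p = 0.714), and without that library it was -0.08 ± 0.09. In TPM its groups overlapped, at 18.3, 13.5 and 13.6 against 13.1, 13 and 14.2.

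*Jup* (16480, chr11:100368856-100397839) had normalized counts of 7549, 7287 and 6863 in Cre_neg and 7691, 6611 and 6681 in Cre_pos ventricles. Its highest value and its lowest value were both in the Cre_pos group. The log2 fold change was -0.05 ± 0.10 (edgeR adjusted p = 0.897) on TMM-scaled counts and 0.07 on log2(TPM + 1), so its sign turned with the scale.

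At the adherens junction, *Cdh2* (12558, chromosome 18) encodes N-cadherin, the classical cadherin of cardiomyocytes. Normalized counts were 6033, 5467 and 5268 in Cre_neg and 4953, 5295 and 5137 in Cre_pos ventricles. A single pair of values crossed between the groups, and the log2 fold change was -0.12 ± 0.10 (edgeR adjusted p = 0.727). In TPM the group means were 143 ± 2.43 and 143 ± 10.2 (SD, n = 3 each). *Ctnna3* (216033, chr10:63430098-65003667) encodes α-T-catenin, which binds plakophilin 2 and links cadherins to actin in the area composita. Its normalized counts were 226, 194 and 167 in Cre_neg and 216, 209.5 and 178 in Cre_pos ventricles, interleaved between the groups. The log2 fold change was 0.04 ± 0.15 with the widest upper limit of the 10 genes, 0.39.

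*Tjp1* (21872, chr7:65296165-65527850) encodes ZO-1, which binds connexin 43 at the rim of gap junction plaques. Normalized counts were 1499, 1383 and 1319.7 in Cre_neg and 1436, 1451 and 1475 in Cre_pos ventricles, and the 3 Cre_pos values lay within the Cre_neg range. The log2 fold change was 0.05 ± 0.08 (edgeR adjusted p = 0.849). In TPM *Tjp1*, like *Gja1*, did not overlap, at 24.9, 25.7 and 24.6 in Cre_neg and 26.8, 29.1 and 28.9 in Cre_pos ventricles (exact two-sided permutation p = 0.1 on log2(TPM + 1) for each gene).

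The number of junction genes without overlap thus depended on the scale. On TMM-normalized counts, 2 of 10 were lower in all Cre_pos ventricles (*Pkp2* and *Dsc2*) and 0 were higher, where 6.85% of all genes tested were lower and 7.55% higher. In TPM, 2 of 10 were higher (*Gja1* and *Tjp1*) and 0 lower, where 15% of all genes tested were higher and 2.44% lower. No junction gene was without overlap on both scales. The summed TPM of the 10 genes was between 1031 and 1043 in Cre_neg and between 1065 and 1091 in Cre_pos ventricles, whereas their summed normalized counts overlapped, at 34849 to 41080.4 and 34349.8 to 36407.

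Without Cre_neg replicate 1, log2 fold changes of the 10 genes ran from -0.10 for *Pkp2* to 0.15 for *Ctnna3*, and none passed the test. Among those not given above, *Gja1* was then at 0.08, *Tjp1* at 0.10, *Cdh2* at -0.07 and *Jup* at -0.02. The mean of the 10 standardised profiles was 1.15 SD in this library and between -0.49 and -0.05 SD in the others. The SD of log2 scaled counts over the 6 ventricles was lowest for *Tjp1* (0.07) and *Gja1* (0.09) and highest for *Dsc2* (0.27). Its median over the 10 genes was 0.13, beside 0.19 over all genes tested and 0.16 over genes with at least the mean TPM of *Ctnna3*.

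**Figure D3:**
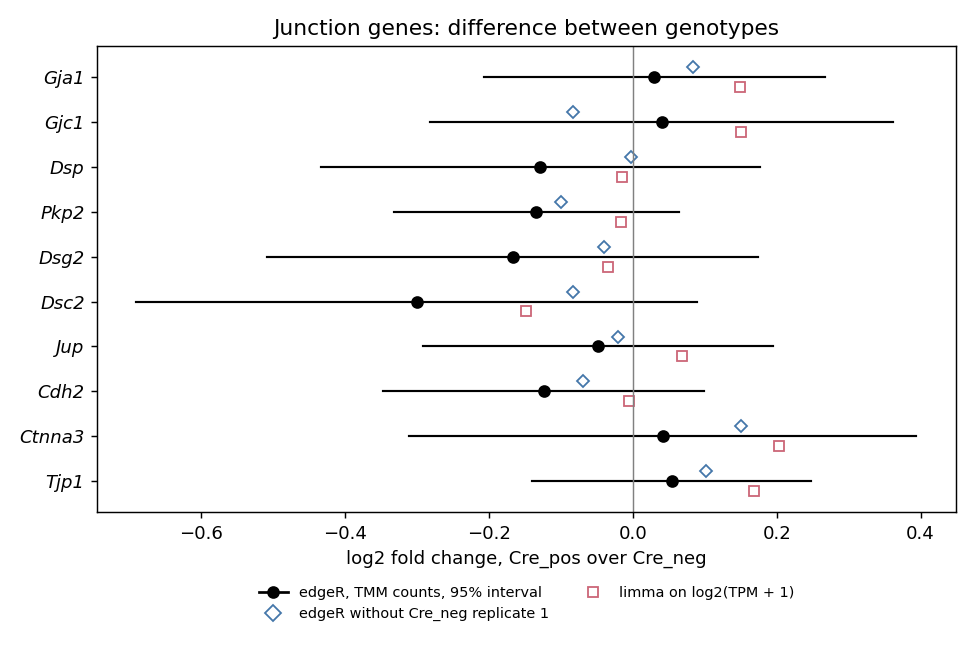
Log2 fold change of each junction gene, Cre_pos over Cre_neg, from edgeR on TMM-scaled counts with its 95% interval (filled circles), from edgeR without Cre_neg replicate 1 (diamonds) and from limma on log2(TPM + 1) (squares). Every interval includes 0, and the *Dsc2* value moves from -0.30 to -0.08 when the replicate is left out.

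The connexin pool was made up mainly of *Gja1*. Of the summed TPM of 16 connexin genes in the table, *Gja1* took 73.4%, 67.1% and 71.5% in Cre_neg and 69.7%, 71.3% and 70.6% in Cre_pos ventricles. The means were 70.7% ± 3.24 and 70.5% ± 0.825 (SD, n = 3 each), and the exact two-sided permutation test gave p = 0.9. *Gja4*, the connexin 37 gene known from arterial endothelium, took 9.31% as a mean over all ventricles, and *Gjc1* took 8.25%. *Gja3*, the connexin 46 gene known from the lens, took 3.75%, and *Gja5*, the connexin 40 gene of atria, conduction fibres and arteries, took 3.52%. The log2 ratio of *Gjc1* to *Gja1* TPM was -3.11 ± 0.33 in Cre_neg and -3.11 ± 0.21 in Cre_pos ventricles (difference 0.01, exact two-sided permutation p = 1, n = 3 each). It was lowest in Cre_neg replicate 1, at -3.49, and without that library the difference between genotypes was -0.18. For the *Gja1* share the difference was -0.145 percentage points with that library and 1.22 without it.

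**Figure D4:**
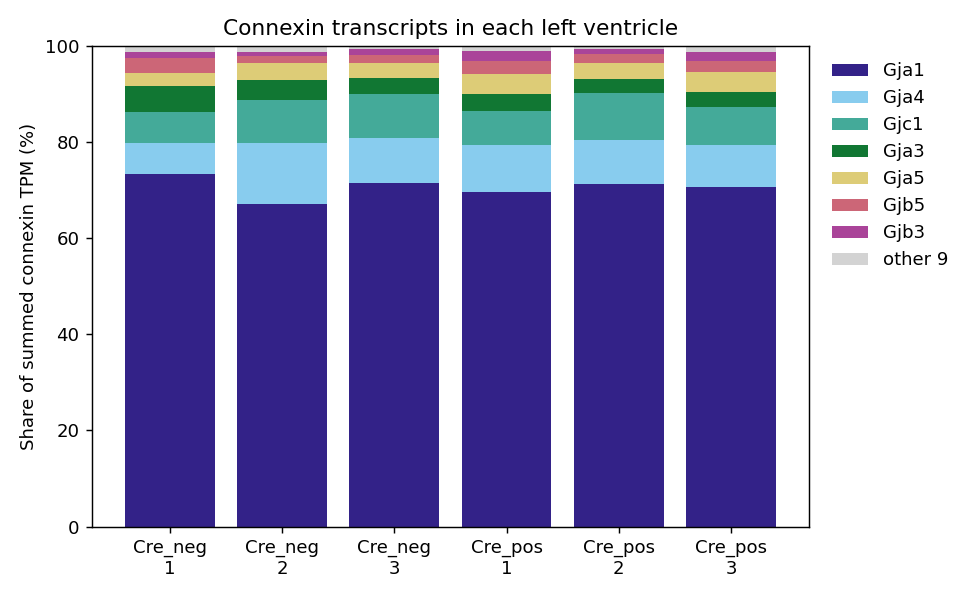
Share of the summed TPM of 16 connexin genes in each ventricle, in percent. Bars are single ventricles. *Gja1* takes between 67.1% and 73.4% in all 6, and *Gja4* and *Gjc1* follow as means over the 6.

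Other genes of the disc were read from 4 lists, and 0 of their 37 tested genes passed an adjusted p of 0.05 by edgeR, by DESeq2 or by limma on log2(TPM + 1). At an unadjusted p under 0.05 there were 4 of 37, beside 5.83% of all genes tested. Of the other connexins, 7 of 14 in the table could be tested, with 4 log2 fold changes above 0, 3 below and a median of 0.01. *Gja4* had a value of 0.01 ± 0.21 and *Gja3* one of -0.36 ± 0.19, the latter with normalized counts of 414, 294 and 249.6 against 273, 218 and 255, and a value of -0.13 without Cre_neg replicate 1. *Gja5*, chosen after its values were seen, was at 264, 305 and 265 in Cre_neg and 380.2, 278 and 391 in Cre_pos ventricles, with a log2 fold change of 0.33 ± 0.15 (edgeR adjusted p = 0.714).

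Of the other desmosome genes, 7 of 13 were tested, with 4 above 0, 3 below and a median log2 fold change of 0.10. *Des*, which encodes the desmin filaments that desmoplakin anchors, had a log2 fold change of -0.03 ± 0.18 on TMM-scaled counts and 0.07 on log2(TPM + 1). *Perp*, a tetraspan membrane protein of desmosomes, had -0.38 ± 0.16 (unadjusted p = 0.049, edgeR adjusted p = 0.714), with normalized counts of 4656, 3172 and 3104 against 2623, 2891 and 2861. As with *Dsc2*, Cre_neg replicate 1 was the highest, and the *Perp* value was -0.17 without it.

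The other adherens junction genes had 10 of 11 tested, 7 above 0 and 3 below, and a median log2 fold change of 0.12. *Ctnna1*, the broadly expressed α-E-catenin gene, had -0.15 ± 0.12, and *Ctnnb1*, the β-catenin gene, had 0.11 ± 0.12. Without Cre_neg replicate 1 these were -0.03 and 0.02, and without Cre_neg replicate 3 they were -0.23 and 0.18. *Ctnnb1* was at 0.05 without Cre_pos replicate 2. *Cdh11*, a cadherin known from fibroblasts and other mesenchymal cells and chosen here after its values were seen, had normalized counts of 454, 407 and 415 in Cre_neg and 617, 536 and 545 in Cre_pos ventricles. These did not overlap, on either scale, and the log2 fold change was 0.41 ± 0.10 (unadjusted p = 0.00305, edgeR adjusted p = 0.714).

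All 13 other disc-associated genes were tested, 4 above 0 and 9 below, with a median log2 fold change of -0.06. *Csrp3*, the muscle LIM protein gene, had -0.21 ± 0.13, and *Ldb3*, which encodes the Z-disc protein cypher, had -0.26 ± 0.18. Without Cre_neg replicate 1 these were -0.10 and -0.04. Chosen after their values were seen, *Lmo7* had -0.42 ± 0.17 (unadjusted p = 0.0367) and *Xirp2*, which encodes a Xin-repeat actin-binding protein of the disc, had 0.32 ± 0.13 (unadjusted p = 0.0404), both with an edgeR adjusted p of 0.714. Normalized counts of *Lmo7* were 6114, 4444 and 4018 against 3351, 3584 and 3974, and its value was -0.22 without Cre_neg replicate 1. Normalized counts of *Xirp2* were 9519, 10344 and 12134 in Cre_neg and 12251, 14696 and 13128 in Cre_pos ventricles.

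Cardiomyocytes are the cells that form the disc, and the sum of their markers did not overlap between genotypes. All 11 were detected in every ventricle, all 11 had a log2 fold change below 0, from -0.44 to -0.25 with a median of -0.32, and none passed the test. In all Cre_pos ventricles 7 of 11 were lower on normalized counts and 2 of 11 in TPM, beside 6.85% and 2.44% of all genes tested. Their summed TPM was between 70187 and 84802 in Cre_neg and between 62088 and 69380.2 in Cre_pos ventricles, and without Cre_neg replicate 1 the Cre_neg sums were 70187 and 70990.5. Relative to that sum, the 10 junction genes had a median log2 difference of 0.23, beside 0.32 for all genes tested with a TPM above 0. Of the junction genes, 4 of 10 (*Gja1*, *Dsp*, *Ctnna3* and *Tjp1*) were higher in all Cre_pos ventricles on this ratio, where 33.5% of all genes were. Differences ran from 0.04 for *Dsc2* to 0.43 for *Ctnna3*, and the exact two-sided permutation tests gave p = 0.1 at the lowest (0.25 after Benjamini-Hochberg adjustment over the 10). Without Cre_neg replicate 1 the median of the 10 was 0.15, and differences ran from 0.08 for *Pkp2* to 0.41 for *Ctnna3*. Without that library 5 of 10 were higher in all Cre_pos ventricles. The share and the median over all genes are not given in that setting, so these values cannot be set against them. That library moved the ratio by over 1.5 times for *Gjc1* (0.08 without it, 0.35 with it), *Pkp2* (0.08, 0.18), *Cdh2* (0.11, 0.19), *Jup* (0.15, 0.27) and *Dsc2* (0.10, 0.04). Other libraries moved it as far. Without Cre_pos replicate 2 the ratio was 0.21 for *Gjc1*, 0.09 for *Pkp2*, 0.11 for *Cdh2*, 0.02 for *Dsc2* and 0.28 for *Ctnna3*. *Dsg2*, at 0.16 with all libraries, was 0.26 without Cre_neg replicate 2 and 0.08 without Cre_neg replicate 3, and *Dsc2* was 0.01 without the one or the other. No library left out turned the sign of any of the 10. For *Gja1* the log2 ratio was -8.23 ± 0.15 in Cre_neg and -7.89 ± 0.05 in Cre_pos ventricles (SD, n = 3 each). The part of cardiomyocyte content in the differences of single junction genes was not tested.

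**Figure D5:**
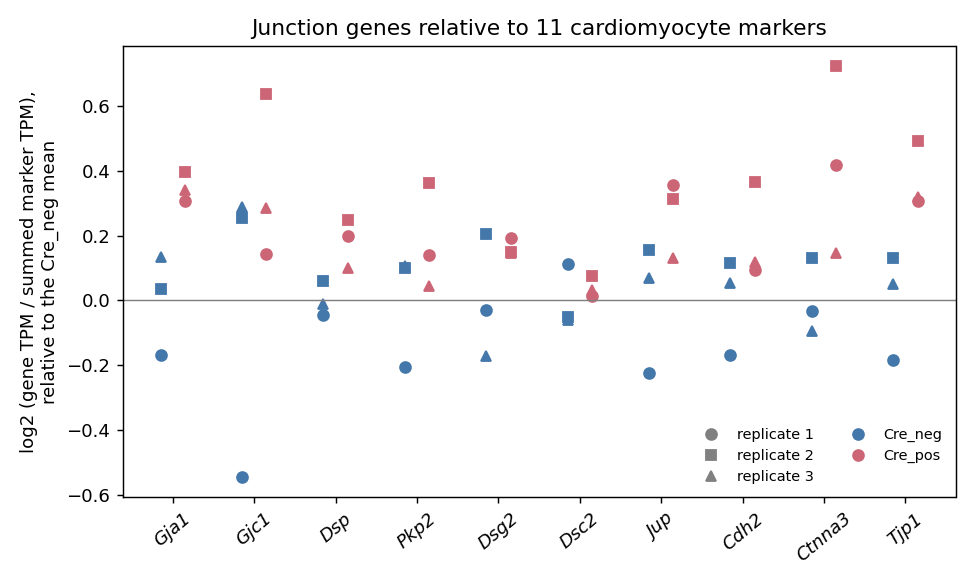
Log2 ratio of each junction gene's TPM to the summed TPM of 11 cardiomyocyte markers, relative to the Cre_neg mean of that gene. Points are single ventricles, with a symbol for each replicate number. The Cre_pos points of *Gja1*, *Dsp*, *Ctnna3* and *Tjp1* lie above all their Cre_neg points, and those of *Dsc2* lie within 0.1 of 0.

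Over the 6 ventricles the log2 TPM of a junction gene was also correlated with that marker sum, for 10 genes. Highest was *Dsc2*, with Pearson's r = 0.94 (exact permutation p = 0.0125, adjusted over the 10 p = 0.125) and Spearman's rho = 0.83 (exact permutation p = 0.0583, adjusted 0.292). Without the 2 ventricles farthest from the median, Cre_neg replicate 1 and Cre_pos replicate 2, its r was 0.63. Most negative was *Gjc1*, with r = -0.78 (exact permutation p = 0.0792, adjusted 0.344) and rho = -0.49 (exact permutation p = 0.356, adjusted 0.593), and without those ventricles r was 0.99, so that relation rests on them. *Tjp1* had r = -0.66 (exact permutation p = 0.138, adjusted 0.344) and rho = -0.89 (exact permutation p = 0.0333, adjusted 0.292), and r = -0.36 without those ventricles. None of the 10 passed after adjustment. With the mean log2 TPM of the markers in place of their sum, *Dsc2* passed (r = 0.97, exact permutation, adjusted p = 0.0139). For that setting r without the far ventricles is not given. *Dsc2* was at 18.26 TPM in Cre_neg replicate 1 and at 13.04 to 14.15 TPM in the other ventricles. With normalized counts in place of TPM, r turned positive for *Tjp1* (0.30), *Gja1*, *Pkp2*, *Jup*, *Cdh2* and *Ctnna3*. TPM values of a library share its total, and the ventricles of both genotypes are pooled in these values.

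Markers of other cell types were read in the same way, and none of these genes passed the test. Log2 fold changes were above 0 for 6 of 8 fibroblast markers (median 0.11), 4 of 7 endothelial (0.04), 5 of 6 smooth muscle and pericyte (0.26), 3 of 7 macrophage (-0.10), 1 of 5 neutrophil (-0.90), 5 of 5 mesothelial and epicardial (0.65), 4 of 4 tested epithelial (0.89) and 3 of 4 atrial markers (0.08). Summed TPM of the epithelial list, low throughout, was between 22.9 and 28.7 in Cre_neg and between 44.4 and 48.8 in Cre_pos ventricles. For the mesothelial and epicardial list it was between 29.1 and 107 in Cre_neg and between 74.6 and 151 in Cre_pos ventricles. Single libraries stood apart in several lists. The summed TPM of Cre_neg replicate 1 was 413 for neutrophil markers, against 85.9 and 48.4 in its group and 66.6 to 156 in Cre_pos, 4660.0 for fibroblast markers, against 7446 and 6655, and 334 for smooth muscle and pericyte markers, against 589 and 640.0. Cre_pos replicate 1 was at 16599.9 for atrial markers, against 6881 and 7086. The junction genes are genes of cardiomyocytes and also of other cells. Epithelia and mesothelium, for instance, express desmosomal and ZO-1 genes. The part of any of these cell types in the values above was not tested.

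Outside the junction genes, the patterns most like the mean standardised log2 scaled counts of the 10 over the 6 ventricles were those of *Dhdh*, *Sympk* and *Efnb3*, with Pearson's r of 0.998, 0.996 and 0.994. Normalized counts of *Dhdh* were 326, 217 and 185 in Cre_neg and 219.9, 207 and 201 in Cre_pos ventricles. All 3 genes were highest in Cre_neg replicate 1. The likeness of the 10 genes to their own mean had a median r of 0.70, with *Dsp* closest at 0.98 and *Gjc1* opposite at -0.85.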

How the data were processed

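Left ventricles (3 Cre_pos and 3 Cre_neg samples) were profiled by bulk RNAseq, with groups taken from the sample labels. The authors deposited estimated counts, which are not normalized and of which 11.0% to 11.8% in a library are not whole numbers, with TPM and FPKM for the same genes. The deposited TPM values are scaled to transcript length and sum alike in each library. Columns of FPKM (6) were not used. Columns of the authors' own comparison, which hold fold changes and p-values, were not used either. The submitters' processing notes name Bowtie2 2.2.5, RSEM 1.2.12 and the build GRCm38.p6, and gene positions and promoter windows are from RefSeq on that build.

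Estimated counts were rounded, filtered by filterByExpr (minimum count 10, minimum total 15), scaled by TMM and compared between genotypes by edgeR 4.0.16 quasi-likelihood tests in R 4.3.3, with Benjamini-Hochberg adjustment over 13817 genes and a threshold of 0.05. The test was checked on simulated data. TMM-scaled counts are given as normalized counts, set to a common library of 14264187. A gene with no count could have up to 3 counts, 0.202 to 0.228 in CPM, for counting error only. No library was a copy of another (chi-square per gene 8.07 to 68.3 between pairs). The labels name no animal for a library, so p-values measure only the spread between these samples, part of which may be technical. Single values were compared by exact two-sided permutation tests (scipy 1.17.1), which cannot go below 0.1 with 3 against 3. limma 3.58.1 on log2(TPM + pseudocount) and DESeq2 1.42.0 were alternatives, and figures were drawn with matplotlib 3.10.9.

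The junction genes, the other lists and the tests were chosen with earlier results of these data known. The genes named are the 10 junction genes, *Yap1*, *Wwtr1* and *Postn*, of each other disc list any gene past the threshold and the 2 tested genes with the highest mean TPM, the 3 genes most like the junction genes over the 6 ventricles, and a few said to be chosen after their values were seen.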

Additional observations from a re-analysis of the deposited data

How the results depend on the processing

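The number of junction genes called was 0 under all 16 alternatives, and that of the other disc genes was 0 under all 15. Of 150 alternative log2 fold changes of the 10 junction genes, 142 kept their sign, and the lowest adjusted p was 0.509. The number of all genes called, 1, was 5 with DESeq2's Wald test, 2 with limma on log2(TPM + 1) and 2 with limma on log2(TPM + 0.1), and leaving out a replicate gave 0 to 2 (0 without Cre_neg replicate 3, Cre_pos replicate 1 or Cre_pos replicate 3, and 2 without Cre_neg replicate 1). With TPM and limma (pseudocounts 1 and 0.1), *Jup* was at 0.0677 and 0.0679 and *Des* at 0.0732 and 0.0732. Leaving out each replicate in turn gave -0.024 to 0.084 for *Gja1*, -0.083 to 0.12 for *Gjc1*, -0.061 to 0.15 for *Ctnna3*, -0.024 to 0.061 for *Yap1*, -0.19 to 0.26 for *Gja4* and -0.21 to 0.053 for *Des*. With no change of sign, it gave 0.014 to 0.10 for *Tjp1* (lowest without Cre_neg replicate 3), -0.12 to -0.010 for *Jup* (nearest 0 without Cre_pos replicate 2) and 0.0010 to 0.068 for *Wwtr1* (lowest without Cre_neg replicate 2). The same gave -1.93 to 1.22 percentage points for the *Gja1* share of connexins and -0.18 to 0.12 for the log2 ratio of *Gjc1* to *Gja1*. With normalized counts in place of TPM, the correlation with cardiomyocyte markers was 0.54 for *Gja1*, 0.73 for *Pkp2*, 0.59 for *Jup*, 0.81 for *Cdh2*, 0.30 for *Tjp1* and 0.35 for *Ctnna3*, each with the other sign, and for *Dsc2* it was 0.97 (exact permutation, adjusted p = 0.0139) with the mean log2 TPM of the markers. The causes were not tested.

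With the replicate number as a block, 0 genes were called in all and 0 junction genes. In that fit 1217 genes had an unadjusted p under 0.05, beside 806 without the block. Deviations of same-numbered ventricles correlated at 0.354, 0.0726 and -0.0318, and those of differently numbered ventricles at -0.368 to 0.354. The numbers were therefore not taken as pairs, although Y-linked counts were low in replicate 2 of both genotypes. Depth was lowest for *Ctnna3*, at 167 to 226 normalized counts.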
